A study of Mus musculus with 8 samples.

Results

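The 37 genes described here code for the basement membrane, for other collagens, for the enzymes and the chaperone that mature collagen chains, and for the cell surface receptors that hold cells to matrix. They were taken by name from a table of 24888 mouse genes, and all 37 were found in it. Earlier results of these data were known when they were chosen. They comprised 6 type IV collagen chains, 9 laminin chains, 5 linker and proteoglycan genes, Sparc and fibronectin (Fn1), 5 fibrillar collagen chains, 7 receptor genes and 3 collagen processing genes. Of the 37, 33 reached 20 counts in at least 1 library. Col4a3, Col4a4, Lama2 and Col3a1 did not, and their highest counts were 3, 4, 13 and 18.

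A basement membrane is a thin sheet of matrix beneath epithelia. Laminin trimers, each of an alpha, a beta and a gamma chain, polymerise on the cell surface and are bound there by integrins and dystroglycan, while type IV collagen forms a covalent network that nidogens and the heparan sulfate proteoglycan perlecan tie to laminin. In the mouse blastocyst the primitive endoderm and its parietal derivative are known as prolific makers of type IV collagen and of the laminin built from Lama1, Lamb1 and Lamc1, which they lay down as Reichert's membrane. Newly made collagen chains are hydroxylated on proline and lysine and are escorted by the chaperone Serpinh1 (HSP47) before secretion.

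All 8 libraries came from E14 mouse embryonic stem cells, with 1 library per group. EPSC were ESC kept for 5 passages in a knockout serum replacement medium with LIF and 6 small molecule inhibitors (CHIR99021, PD0325901, JNK Inhibitor VIII, SB203580, A-419259 and XAV939), and ESC were kept in serum with LIF, CHIR99021 and PD0325901. T09-treated EPSC and T09-treated ESC were grown for 3 days with T0901317, an agonist of the liver X receptors. Its dose is labelled 1 uM/mL, from which no molar concentration can be read. The siNr1h2 and siNT day 2 blastoids were EPSC aggregates, which model the blastocyst, taken 48 hours after transfection with an siRNA against Nr1h2, a liver X receptor gene, or with a non-targeting siRNA. The Type I and Type III day 5 blastoids were picked by hand from aggregates that, by their labels, started from EPSC given T09. Their sample titles hold Gd for Type I and Bad for Type III, and the labels define the 2 types no further. From the second day of culture the blastoid medium held FGF4, heparin, CHIR99021, BMP4 and A83-01, an inhibitor of TGF-beta type I receptors.

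Total counts per library ran from 24666260 to 40781415, and 0 counts in a library allow a level of up to 0.0741 to 0.114 CPM (3 counts over the scaled total). Levels are given as TMM-scaled CPM, a gene's share of its library. Of the 2 siRNA libraries, siNr1h2 held 37.7 CPM of Nr1h2 and siNT 53.9 CPM. The summed level of 11 pluripotent epiblast markers was 5219 to 8050 CPM in the 4 stem cell libraries, 2408 and 2481 CPM on day 2 and 723 and 1225 CPM on day 5. That of 19 primitive and parietal endoderm markers was 79.4 to 278 CPM in stem cells, 2936 and 3094 CPM on day 2 and 7320 and 5884 CPM on day 5. The 12 fibroblast and smooth muscle markers summed to 20.6 to 46.4 CPM over all 8 libraries.

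Type IV collagen genes lie in head-to-head pairs, and Col4a1 and Col4a2 share 1 promoter. Their promoter windows, from 250 bases before to 50 bases after each start site (RefSeq, GRCm38.p6), are shown because these genes had the widest range of level of the well-counted genes and stood in the same order over the libraries. Col4a1 lies at chr8:11312777-11313076, minus strand, and Col4a2 at chr8:11312555-11312854, plus strand. The start sites are 21 bases apart on opposite strands, and capitals mark the 78 bases that both windows hold, each read on its own strand.
Col4a1: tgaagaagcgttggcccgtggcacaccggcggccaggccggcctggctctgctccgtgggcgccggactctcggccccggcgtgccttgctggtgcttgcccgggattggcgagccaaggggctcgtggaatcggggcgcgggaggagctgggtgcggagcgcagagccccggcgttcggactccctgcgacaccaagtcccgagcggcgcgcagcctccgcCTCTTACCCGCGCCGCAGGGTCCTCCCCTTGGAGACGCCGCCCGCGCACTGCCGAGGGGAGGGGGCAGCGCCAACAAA
Col4a2: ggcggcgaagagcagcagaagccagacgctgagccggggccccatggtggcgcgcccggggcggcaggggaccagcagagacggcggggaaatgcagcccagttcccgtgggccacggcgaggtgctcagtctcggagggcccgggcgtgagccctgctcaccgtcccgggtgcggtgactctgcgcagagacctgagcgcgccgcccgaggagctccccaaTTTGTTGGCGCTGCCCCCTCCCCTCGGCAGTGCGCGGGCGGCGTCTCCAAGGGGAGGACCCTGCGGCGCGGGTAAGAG
The windows of Col4a5 and Col4a6, the X-linked pair, share 0 bases, and their start sites are 1343 bases apart.

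Lamb1 and Serpinh1 are shown beside them as the laminin chain and the collagen chaperone with the widest range of level after the Col4a1 and Col4a2 pair. The windows lie at chr12:31265043-31265342, plus strand (Lamb1) and at chr7:99353190-99353489, minus strand (Serpinh1). Capitals mark matches to a GC box (GGGCGG or CCGCCC) or a CCAAT box (CCAAT or ATTGG), which do not overlap each other in letters.
Lamb1: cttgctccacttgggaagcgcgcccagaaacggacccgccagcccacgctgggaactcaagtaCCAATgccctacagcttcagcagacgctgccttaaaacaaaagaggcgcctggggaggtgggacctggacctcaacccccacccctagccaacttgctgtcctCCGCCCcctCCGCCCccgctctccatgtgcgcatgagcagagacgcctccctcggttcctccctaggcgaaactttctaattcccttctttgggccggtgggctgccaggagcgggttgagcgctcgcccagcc
Serpinh1: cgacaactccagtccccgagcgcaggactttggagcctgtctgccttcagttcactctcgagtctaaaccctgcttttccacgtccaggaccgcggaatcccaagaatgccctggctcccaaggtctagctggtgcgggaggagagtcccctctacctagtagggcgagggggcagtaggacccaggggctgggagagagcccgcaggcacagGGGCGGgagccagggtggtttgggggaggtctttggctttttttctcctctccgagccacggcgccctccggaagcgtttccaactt
Windows were available for 25 of the 37 genes, 30 windows in all. A GC box was found in 23 of the 30 windows (20 of the 25 genes), against 35.7% of 32851 mouse windows of the same length. A CCAAT box was found in 10 of the 30 windows (9 of the 25 genes), against 37.4%. The GATA motif AGATAA (or TTATCT) was found in 0 of the 30 windows and so for 0 of the 25 genes, against 11.2% of all windows. Their content of G and C ran from 37.7% for Col3a1 to 83.3% for Agrn, against a median of 52.7% over all windows. It was 74.0% for Col4a1 and 73.7% for Col4a2, while Col3a1, Lamb2, Col4a6 and Lama2 lay below that median and Col4a5 at it.

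The matrix genes took the largest share of reads in the day 5 blastoids. They held 4.17% of all counts in Type I and 2.40% in Type III, against 0.699% in siNr1h2 and 0.702% in siNT day 2 blastoids and 0.639% to 0.802% in the 4 stem cell libraries. Col4a1 and Col4a2 together made up 53.3% of the matrix gene counts in Type I, 45.0% in Type III, 20.4% in siNr1h2 and 21.6% in siNT, and 0.702% to 5.89% in the stem cell libraries. Without that pair, the share was still 1.95% in Type I and 1.32% in Type III, against 0.551% to 0.754% in the other 6 libraries. In bulk RNA, more cells of a type and more RNA per cell cannot be told apart.

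Of the 33 genes with at least 20 counts, 18 had their highest level in Type I blastoids, where 22.5% of the 15341 genes with that many counts had theirs. The other highest levels were spread over EPSC (4), ESC (4), Type III (3), T09-treated ESC (2), siNr1h2 (1) and siNT (1). Both day 5 blastoids stood above all of the other 6 libraries for 17 of 33 genes, against 25.9% of all genes, and below them for 3, against 23.5% (Col18a1, Itga6 and Lama3). All 4 blastoid libraries stood above all 4 stem cell libraries for 13 of 33, against 16.6%. Of these 13, Col4a5, Col4a6 and Col1a2 reached 20 counts only in blastoids, so they could not have been counted below. All 4 blastoids stood below all 4 stem cell libraries for 4 of 33, against 17.7% (Fn1, Nid1, Itga6 and Col1a1). The counting intervals of Nid1 in Type I and of Col1a1 in Type III overlapped those in T09-treated EPSC.

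**Figure D1:**
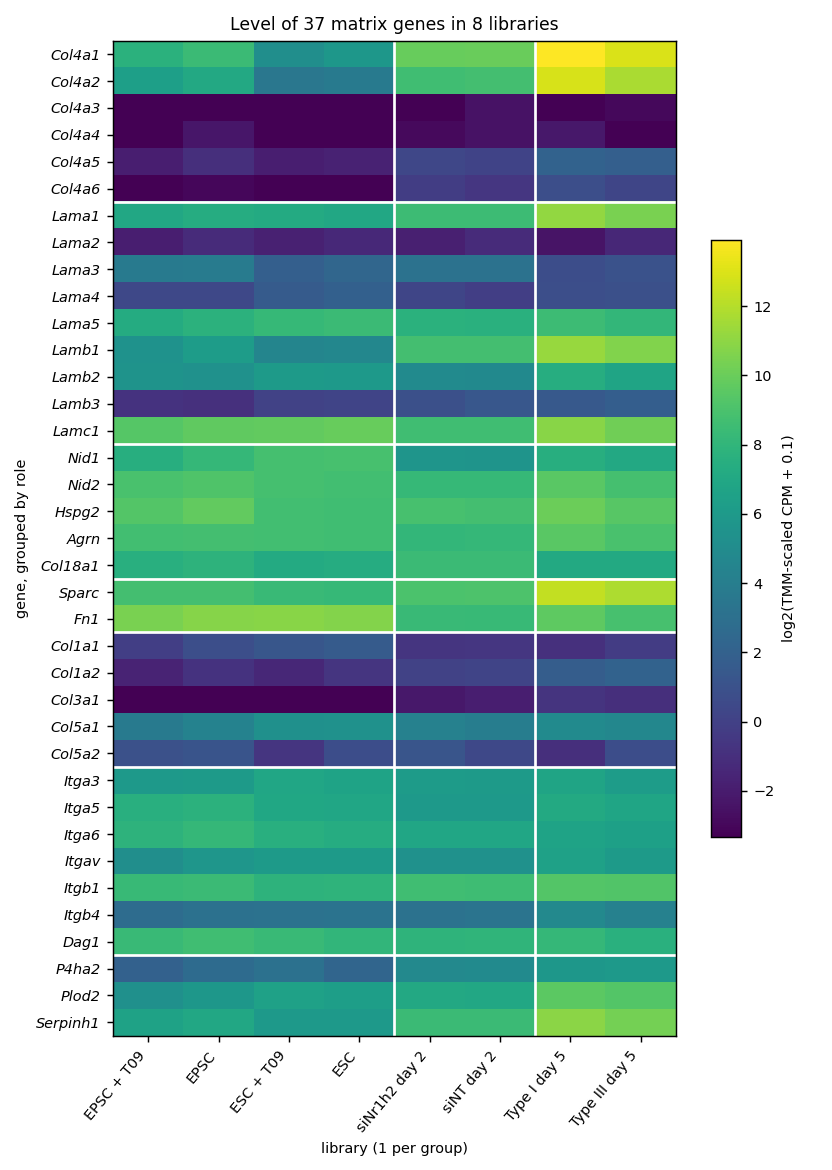
Level of each of the 37 matrix genes (rows, grouped by role and divided by white lines) in each of the 8 libraries (columns, 1 per group), as log2 of TMM-scaled CPM plus 0.1. Col4a1, Col4a2, Lama1, Lamb1, Sparc and Serpinh1 were brightest in the 2 day 5 blastoids, and Fn1 in the 4 stem cell libraries.

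Col4a1 and Col4a2 code for the chains of the most common type IV collagen trimer. Col4a1 had 202 CPM in T09-treated EPSC, 338 in EPSC, 36.8 in T09-treated ESC and 55.0 in ESC. It had 943 CPM in siNr1h2 and 992 in siNT day 2 blastoids, and 15509.6 CPM in Type I and 7700.0 in Type III blastoids, and in Type I it took more reads than any other gene. The highest library was 421 times the lowest for Col4a1, and no 2 of the stages ESC, EPSC, day 2 and day 5 overlapped. Col4a2 had 85.6 CPM in T09-treated EPSC, 134 in EPSC, 11.2 in T09-treated ESC and 13.9 in ESC. It had 401 CPM in siNr1h2 and 430.5 in siNT day 2 blastoids, and 7489.9 CPM in Type I and 3465 in Type III blastoids. Its libraries stood in the same order as those of Col4a1, over a 668-fold range.

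The balance of the 2 chains moved less than their level. The ratio of Col4a1 to Col4a2 counts was 2.07 (2.06 to 2.08) in Type I and 2.22 (2.21 to 2.24) in Type III blastoids, with 95% exact intervals for counting error in brackets. It was 2.35 in siNr1h2 and 2.30 in siNT, 2.36 in T09-treated EPSC and 2.52 in EPSC. The 2 ESC libraries had the highest ratios, 3.28 (2.93 to 3.68) with T09 and 3.95 (3.56 to 4.38) without.

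The other type IV chains were scarce. Col4a5 had 0.167 to 0.393 CPM in the stem cell libraries, 1.18 CPM in siNr1h2 and 0.991 in siNT day 2 blastoids and 4.21 CPM in Type I and 3.59 in Type III blastoids. Col4a6, which lies head to head with Col4a5, had 0 counts in 3 stem cell libraries and 1 count in EPSC, then 0.763 CPM in siNr1h2 and 0.559 in siNT day 2 blastoids and 1.64 CPM in Type I and 1.10 in Type III blastoids. Both thus stood in the same order of stem cells, day 2 and day 5 as the main pair. Col4a3 and Col4a4, chains of the mature kidney and lung membrane, never exceeded 4 counts, so no difference was detectable for them at this depth.

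**Figure D2:**
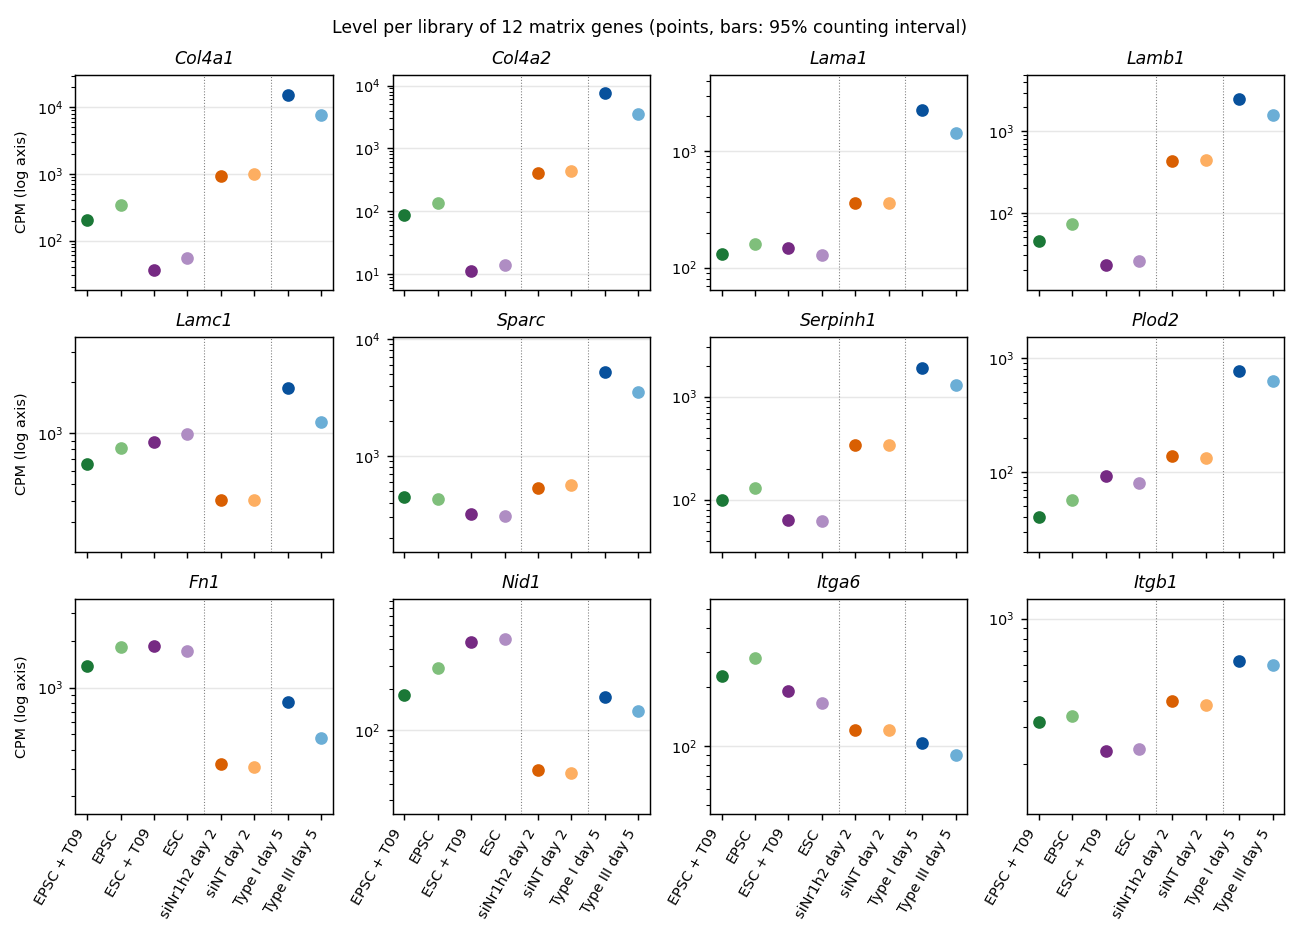
TMM-scaled CPM (log axes with a separate range in each panel) of 12 matrix genes in each library, 1 point per library, with a 95% counting interval that is mostly hidden by the point. Dotted lines divide the stem cell, day 2 and day 5 libraries. Levels were highest on day 5 for Col4a1, Col4a2, Lama1, Lamb1, Sparc, Serpinh1 and Plod2, while Fn1 and Itga6 were highest in stem cells.

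The laminin chains of the early embryonic trimer did not move in parallel. Lama1 had 131 CPM in T09-treated EPSC, 160.0 in EPSC, 147 in T09-treated ESC and 129 in ESC, a narrow range. It had 361 CPM in siNr1h2 and 357 in siNT day 2 blastoids, and 2272 CPM in Type I and 1421 in Type III blastoids. Lamb1 varied more between the stem cells, with 44.6 CPM in T09-treated EPSC, 72.3 in EPSC, 22.7 in T09-treated ESC and 25.4 in ESC. It had 432 CPM in siNr1h2 and 439 in siNT day 2 blastoids, and 2501 CPM in Type I and 1583 in Type III blastoids, a 110-fold range over the 8 libraries. Lamc1, the gamma chain shared by most laminins, had its lowest levels on day 2 and not in stem cells, with 658 CPM in T09-treated EPSC, 819 in EPSC, 885 in T09-treated ESC and 984 in ESC. It had 406 CPM in siNr1h2 and 401 in siNT day 2 blastoids, lower than in every stem cell library, and 1839 CPM in Type I and 1152 in Type III blastoids, above every other library.

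Scaled to exon length, the 3 chains came closer to parity in blastoids. Lama1 stood at 0.989 of Lamc1 in Type I and 0.987 in Type III, at 0.711 in siNr1h2 and 0.712 in siNT, and at 0.105 to 0.159 in the stem cell libraries, all as ratios of CPM per kb. Lamb1 stood at 1.77 and 1.79 times Lamc1 on day 5, at 1.39 and 1.43 times on day 2, and at 0.0335 to 0.115 in stem cells. The gamma chain transcript thus exceeded both partners in every stem cell library, and the beta chain transcript exceeded the gamma chain transcript in every blastoid library. These lengths come from a later annotation than the one used for counting, so the ratios depend on it while their order over libraries does not.

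The chains that replace Lama1 and Lamb1 in other laminins behaved differently. Lama5, the alpha chain of many adult epithelial membranes, had 153 CPM in T09-treated EPSC, 217 in EPSC, 302 in T09-treated ESC and 343 in ESC. It had 207 CPM in siNr1h2 and 199 in siNT day 2 blastoids, and 359 CPM in Type I and 277 in Type III blastoids. Per length, Lama1 held 30.3% to 48.0% of all alpha chain transcript in the stem cell libraries, 66.3% in siNr1h2 and 67.0% in siNT, and 88.2% in Type I and 85.7% in Type III, while Lama5 held 47.0% to 67.2% in stem cells and 11.7% in Type I and 14.0% in Type III. Lamb2, the other common beta chain, had 47.1 CPM in T09-treated EPSC, 42.2 in EPSC, 65.8 in T09-treated ESC and 61.8 in ESC. It had 30.0 CPM in siNr1h2 and 29.3 in siNT day 2 blastoids, and 171 CPM in Type I and 105 in Type III blastoids, the highest 2 of its 8 levels. Lamb1 held 92.9% to 93.3% of beta chain transcript in all 4 blastoids, against 24.7% to 62.0% in stem cells.

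Of the minor laminin chains, Lama3 (an alpha chain of epidermal laminin) was lowest on day 5. It had 13.2 CPM in T09-treated EPSC, 14.1 in EPSC, 3.63 in T09-treated ESC and 4.97 in ESC, then 9.15 CPM in siNr1h2 and 8.76 in siNT day 2 blastoids, and 1.59 CPM in Type I and 1.92 in Type III blastoids. Lama4 had its highest levels in the 2 ESC libraries, with 1.26 CPM in T09-treated EPSC, 1.2 in EPSC, 3.04 in T09-treated ESC and 3.89 in ESC, 1.11 CPM in siNr1h2 and 0.838 in siNT day 2 blastoids and 1.64 CPM in Type I and 1.73 in Type III blastoids. Lamb3 was highest in Type III, with 0.469 CPM in T09-treated EPSC, 0.419 in EPSC, 0.977 in T09-treated ESC and 1.09 in ESC, 1.72 CPM in siNr1h2 and 2.46 in siNT day 2 blastoids and 2.70 CPM in Type I and 3.38 in Type III blastoids. Lama2 never exceeded 13 counts.

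**Figure D3:**
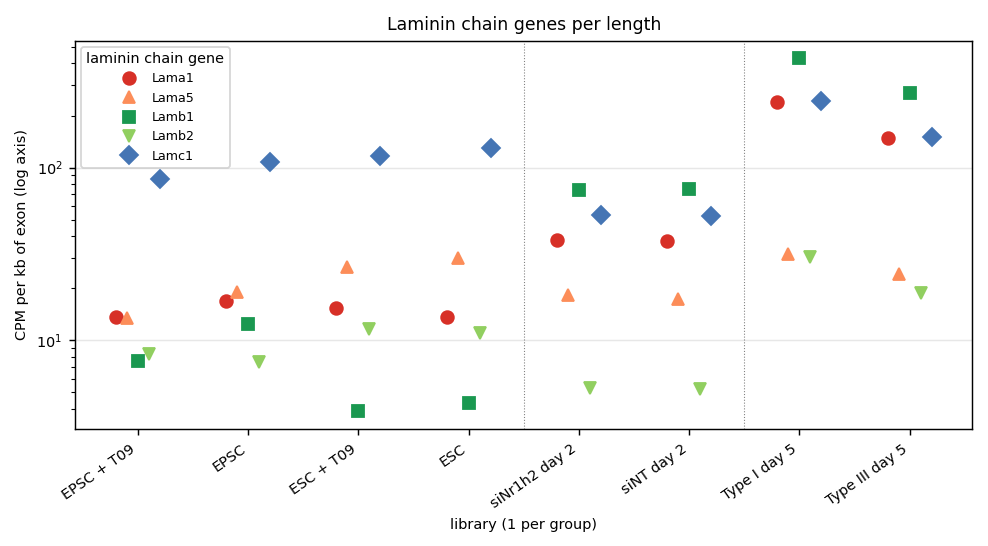
CPM per kb of exon (log axis) of 5 laminin chain genes in each library, 1 symbol per gene and library, so that levels of different genes can be compared. Lamc1 lay above the other chains in the 4 stem cell libraries, and Lamb1 above it in the 4 blastoid libraries, where Lama1 also lay above Lama5.

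Among the linkers, nidogen 1 (Nid1), which bridges laminin and type IV collagen, had its highest levels in stem cells. It had 182 CPM in T09-treated EPSC, 289.7 in EPSC, 448 in T09-treated ESC and 469 in ESC. It had 50.5 CPM in siNr1h2 and 47.8 in siNT day 2 blastoids, its lowest levels, and 176 CPM in Type I and 137 in Type III blastoids, still below every stem cell library. Nid2, its paralog, had 512 CPM in T09-treated EPSC, 575 in EPSC, 461 in T09-treated ESC and 420.2 in ESC. It had 301 CPM in siNr1h2 and 299 in siNT day 2 blastoids, and 713 CPM in Type I and 459 in Type III blastoids, so that Nid2 exceeded Nid1 per length by 1.12 to 3.51 times in stem cells and by 4.18 to 7.81 times in blastoids. Perlecan (Hspg2) had 645 CPM in T09-treated EPSC, 870.3 in EPSC, 426 in T09-treated ESC and 388 in ESC. It had 477 CPM in siNr1h2 and 429.8 in siNT day 2 blastoids, and 1076 CPM in Type I and 710.4 in Type III blastoids. Agrin (Agrn), another heparan sulfate proteoglycan, had 419 CPM in T09-treated EPSC, 442 in EPSC, 422 in T09-treated ESC and 392 in ESC, 274 CPM in siNr1h2 and 285 in siNT day 2 blastoids and 718 CPM in Type I and 499 in Type III blastoids. Col18a1, the collagen that carries endostatin, peaked on day 2. It had 189 CPM in T09-treated EPSC, 232 in EPSC, 151 in T09-treated ESC and 161 in ESC. It had 346 CPM in siNr1h2 and 350.2 in siNT day 2 blastoids, and 145 CPM in Type I and 143 in Type III blastoids.

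Sparc and fibronectin had opposite orders between stem cells and blastoids. Sparc, a collagen-binding glycoprotein known from parietal endoderm, had 446 CPM in T09-treated EPSC, 428 in EPSC, 323 in T09-treated ESC and 306 in ESC. It had 535 CPM in siNr1h2 and 562 in siNT day 2 blastoids, and 5229 CPM in Type I and 3497 in Type III blastoids. Fibronectin, the matrix ligand of the integrin that Itga5 and Itgb1 form, had 1374 CPM in T09-treated EPSC, 1809 in EPSC, 1859.7 in T09-treated ESC and 1718 in ESC. It had 324 CPM in siNr1h2 and 309.9 in siNT day 2 blastoids, and 810.3 CPM in Type I and 472 in Type III blastoids, so that every blastoid library lay below every stem cell library.

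The fibrillar collagens, which belong to connective tissue and not to the basement membrane, were low throughout. Col1a1 had 0.815 CPM in T09-treated EPSC, 1.70 in EPSC, 2.34 in T09-treated ESC and 2.92 in ESC, and 0.418 to 0.730 CPM in the blastoids. Col1a2 went the other way, with 0.222 CPM in T09-treated EPSC, 0.471 in EPSC, 0.279 in T09-treated ESC and 0.543 in ESC, 0.953 CPM in siNr1h2 and 1.04 in siNT day 2 blastoids and 3.37 CPM in Type I and 4.17 in Type III blastoids. Col3a1 had 0 counts in all 4 stem cell libraries and at most 18 counts, in Type I. Col5a1 was the best counted, with 13.7 CPM in T09-treated EPSC, 20.2 in EPSC, 40.0 in T09-treated ESC and 42.5 in ESC, 18.6 CPM in siNr1h2 and 15.4 in siNT day 2 blastoids and 30.9 CPM in Type I and 25.4 in Type III blastoids. Col5a2 had 1.88 CPM in T09-treated EPSC, 2.12 in EPSC, 0.530 in T09-treated ESC and 1.60 in ESC, 2.21 CPM in siNr1h2 and 1.24 in siNT day 2 blastoids and 0.390 CPM in Type I and 1.58 in Type III blastoids. Of the 12 fibroblast and smooth muscle markers 5 to 8 reached 20 counts in a library, and Dcn, Lum, Prrx1, Postn and Col6a3 were each at 0 counts in 1 or more libraries. Acta2, a smooth muscle actin, had 6.35 CPM in T09-treated EPSC, 19.3 in EPSC, 0.140 in T09-treated ESC and 0.512 in ESC. It had 1.94 CPM in siNr1h2 and 2.13 in siNT day 2 blastoids, and 0.139 CPM in Type I and 0.882 in Type III blastoids. Pdgfrb of the same list had the opposite order between EPSC and ESC. It had 2.50 CPM in T09-treated EPSC, 4.08 in EPSC, 19.1 in T09-treated ESC and 14.4 in ESC. Of 8 such markers tested below, 3 were higher and 2 lower in EPSC.

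Receptor genes varied less than Col4a1, Lama1 or Lamb1. Itgb1, the beta subunit that most laminin, collagen and fibronectin integrins share, had 318 CPM in T09-treated EPSC, 339 in EPSC, 230.4 in T09-treated ESC and 235 in ESC. It had 404 CPM in siNr1h2 and 385 in siNT day 2 blastoids, and 623 CPM in Type I and 601 in Type III blastoids. Itga6, an alpha subunit of laminin integrins, had the opposite order between stem cells and blastoids, with 228 CPM in T09-treated EPSC, 281 in EPSC, 191 in T09-treated ESC and 165 in ESC, 119.9 CPM in siNr1h2 and 120.0 in siNT day 2 blastoids and 103 CPM in Type I and 90.0 in Type III blastoids. Of the 4 integrin alpha genes taken per length, Itga6 held 40.4% to 48.2% in stem cells and day 2 blastoids, and 26.4% in Type I and 29.2% in Type III. Itga5, the fibronectin receptor subunit, had 189 CPM in T09-treated EPSC, 215 in EPSC, 123 in T09-treated ESC and 118 in ESC, 63.0 CPM in siNr1h2 and 60.7 in siNT day 2 blastoids and 139.8 CPM in Type I and 115 in Type III blastoids. Itga3, another laminin receptor subunit, had 62.1 CPM in T09-treated EPSC, 66.6 in EPSC, 118 in T09-treated ESC and 101 in ESC, 69.7 CPM in siNr1h2 and 65.8 in siNT day 2 blastoids and 108 CPM in Type I and 75.0 in Type III blastoids. Itgav, a subunit of receptors for vitronectin and related ligands, had 36.0 CPM in T09-treated EPSC, 52.4 in EPSC, 66.4 in T09-treated ESC and 68.5 in ESC, 42.3 CPM in siNr1h2 and 41.2 in siNT day 2 blastoids and 93.1 CPM in Type I and 66.6 in Type III blastoids. Itgb4, the partner of Itga6 in hemidesmosomes, had 6.65 CPM in T09-treated EPSC, 8.38 in EPSC, 9.12 in T09-treated ESC and 9.31 in ESC, 9.15 CPM in siNr1h2 and 9.98 in siNT day 2 blastoids and 27.5 CPM in Type I and 19.0 in Type III blastoids. Dag1, which codes for dystroglycan, stayed between 195 CPM in Type III and 391 CPM in EPSC.

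The collagen processing genes were all highest on day 5, over a smaller range than type IV collagen. Serpinh1 had 99.3 CPM in T09-treated EPSC, 129 in EPSC, 62.9 in T09-treated ESC and 62.5 in ESC. It had 339.6 CPM in siNr1h2 and 340.4 in siNT day 2 blastoids, and 1913 CPM in Type I and 1287 in Type III blastoids. Plod2, a lysyl hydroxylase, had 39.9 CPM in T09-treated EPSC, 56.7 in EPSC, 93.0 in T09-treated ESC and 79.7 in ESC. It had 138 CPM in siNr1h2 and 132 in siNT day 2 blastoids, and 771 CPM in Type I and 624 in Type III blastoids. P4ha2, a catalytic subunit of prolyl 4-hydroxylase, had 3.93 CPM in T09-treated EPSC, 6.31 in EPSC, 8.71 in T09-treated ESC and 4.82 in ESC, 27.3 CPM in siNr1h2 and 30.6 in siNT day 2 blastoids and 54.7 CPM in Type I and 65.3 in Type III blastoids. Per length, Serpinh1 stood at 0.334 of Col4a1 in Type I and 0.453 in Type III, against 0.975 in siNr1h2 and 0.929 in siNT, 1.33 in T09-treated EPSC and 1.03 in EPSC, and 4.63 in T09-treated ESC and 3.08 in ESC.

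EPSC differed from ESC in a selective way: the type IV pair, Lamb1, Lama3, perlecan, Serpinh1 and the Itga5, Itga6 and Itgb1 subunits were higher in EPSC, while Nid1, Col5a1, Lama4, Lama5, Itga3 and Plod2, among others, were lower. This was tested in an edgeR quasi-likelihood fit of the 4 stem cell libraries with cell state and treatment as terms, which left 1 residual degree of freedom, with Benjamini-Hochberg adjustment over 14477 genes. Of the 37 genes 32 could be tested (not Col4a3, Col4a4, Col4a5, Col4a6 and Col3a1), and 11 were higher and 10 lower in EPSC at an adjusted p under 0.05, where 14.3% of all genes were higher and 14.5% lower. The median log2 change was 0.03 over the 32 and 0.00 over all genes. Nothing in the labels says that the libraries came from separate cultures. With 1 library per combination of state and treatment, the residual is the departure from additive state and T09 effects. A T09 effect that differed between the states enters it, and the p-values measure no spread between replicate cultures.

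The type IV pair had the largest rises. The log2 change of EPSC over ESC was 3.09 ± 0.139 (SE, adjusted p = 1.17e-06) for Col4a2 and 2.53 ± 0.110 (SE, adjusted p = 1.01e-06) for Col4a1. It was seen in both pairs of libraries, with Col4a1 5.48-fold higher in T09-treated EPSC than in T09-treated ESC and 6.15-fold higher in EPSC than in ESC. Of the laminin chains 2 of 9 rose, Lama3 by 1.67 ± 0.203 (SE, adjusted p = 0.000318) and Lamb1 by 1.23 ± 0.157 (SE, adjusted p = 0.000423), and 4 fell. These were Lama4 at -1.49 (adjusted p = 0.00791), Lama5 at -0.83 (adjusted p = 0.000643), Lamb2 at -0.53 (adjusted p = 0.00965) and Lamc1 at -0.36 (adjusted p = 0.0351). Lama1, the alpha chain of the embryonic trimer, had a log2 change of 0.06 ± 0.127 (SE, adjusted p = 0.777) and did not pass.

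Of the 5 linkers, perlecan rose by 0.87 ± 0.140 (SE, adjusted p = 0.00163) and Col18a1 by 0.41 (adjusted p = 0.0171), and Nid1 had a log2 change of -1.01 ± 0.143 (SE, adjusted p = 0.00079). Nid2 (0.29) and Agrn (0.07) did not pass. Sparc rose by 0.46 (adjusted p = 0.00842), and Fn1 at -0.19 (adjusted p = 0.336) did not pass. Of 4 fibrillar chains tested, Col5a1 fell, with a log2 change of -1.32 (adjusted p = 0.000259), and so did Col1a1, with -1.14 (adjusted p = 0.0419), a call lost with DESeq2 (adjusted p = 0.154). Receptors split as well, with Itga5 at 0.73 (adjusted p = 0.00104), Itga6 at 0.50 (adjusted p = 0.0186) and Itgb1 at 0.48 (adjusted p = 0.00645) higher, and Itga3 at -0.77 (adjusted p = 0.00116) and Itgav at -0.65 (adjusted p = 0.00874) lower. In collagen processing, Serpinh1 rose by 0.84 ± 0.123 (SE, adjusted p = 0.000925) and Plod2 fell, with a log2 change of -0.87 ± 0.164 (SE, adjusted p = 0.00389), while P4ha2 did not pass.

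**Figure D4:**
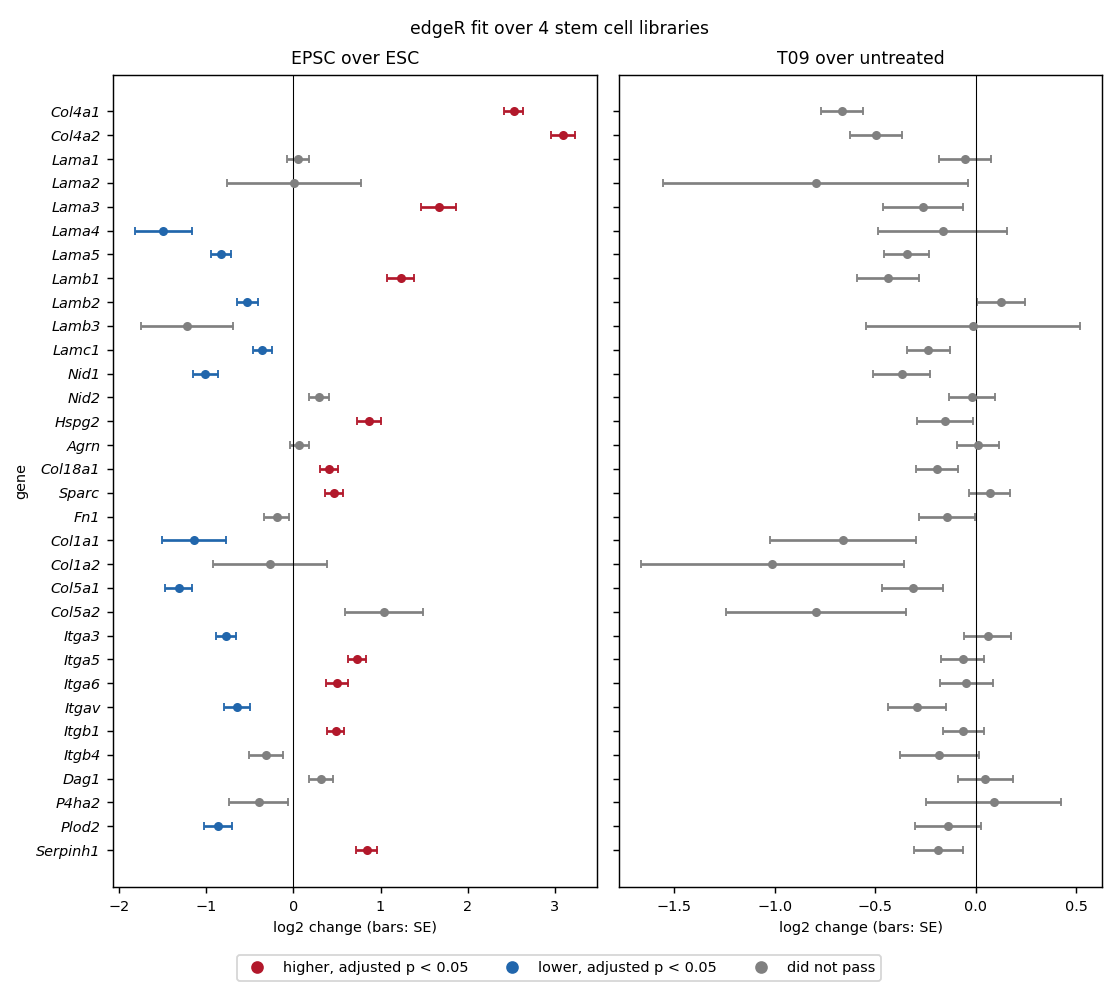
Log2 change (bars: SE) of 32 matrix genes in the edgeR fit of the 4 stem cell libraries, for EPSC over ESC on the left and T09 over untreated on the right. Red marks genes higher and blue genes lower at an adjusted p under 0.05. For cell state 11 were higher and 10 lower, with Col4a2 and Col4a1 at the far right, and for T09 none passed.

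Single pairs of libraries were described without a test. A gene was counted as higher or lower when the TMM-scaled ratio was at least 2-fold, its 95% exact conditional interval for counting error excluded a ratio of 1, and 1 library had at least 20 counts. In EPSC over ESC 6 of 30 matrix genes were higher, where 9.58% of all genes were, and 3 lower, where 8.05% were. The 6 were Col4a1, Col4a2, Lama3, Lamb1, Hspg2 and Serpinh1, and the 3 were Lama4, Lamb3 and Col5a1. Between the T09-treated libraries 4 of 30 were higher (8.35% of all genes) and 6 lower (9.79% of all genes). Here Col4a1, Col4a2 and Lama3 were joined by Col5a2 among the higher, and Col1a1, Nid1, P4ha2 and Plod2 joined Col5a1 and Lama4 among the lower.

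In the fit of the 4 stem cell libraries 14.3% of all genes were higher and 14.5% lower in EPSC. Of 14 primitive and parietal endoderm markers tested in it, 8 were higher and 1 lower, with a median log2 change of 1.61. The summed level of the list was 151 CPM in T09-treated EPSC and 278 CPM in EPSC, against 79.4 CPM in T09-treated ESC and 106 CPM in ESC. Gata6 had 5.51 CPM in T09-treated EPSC, 8.51 in EPSC, 0.335 in T09-treated ESC and 0.603 in ESC. Foxa2 had 0 counts in both ESC libraries and 0.222 CPM in T09-treated EPSC and 0.209 in EPSC. These rest on 9 and 8 counts, and Foxa2 was not tested in the fit. Hnf4a had the opposite order, with 2.99 CPM in T09-treated EPSC, 4.74 in EPSC, 8.175 in T09-treated ESC and 7.35 in ESC. Of 8 fibroblast and smooth muscle markers tested 3 were higher and 2 lower, with a median of 0.34, and the list summed to 20.6 CPM in T09-treated EPSC, 46.4 in EPSC, 32.2 in T09-treated ESC and 29.7 in ESC. Of 11 epiblast markers 0 were higher and 6 lower, and of 9 trophectoderm markers 2 were higher and 6 lower. The part of any of these cells in the changes of matrix genes was not tested.

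After T09, Col4a1 and Col4a2 were lower in both cell states, though not past the threshold. In the fit the log2 change of Col4a1 over both states was -0.66 ± 0.105 (SE, adjusted p = 0.0799), with an unadjusted p of 0.000112, and that of Col4a2 -0.50 ± 0.130 (SE, adjusted p = 0.461). Of the 32 genes tested none was higher or lower at an adjusted p under 0.05, where 0.0898% of all genes were higher and 0.0138% lower. Without adjustment, p was under 0.05 for 5 of them, and for 879 of all 14477 genes. All 5 of these had negative changes: Col4a1, Col4a2, Lama5 (-0.34), Lamb1 (-0.44) and Nid1 (-0.37). DESeq2 on the same genes gave Col4a1 an adjusted p of 0.0011 and no other of the 32 one under 0.05, and without the filter on low counts edgeR gave it 0.0149, while limma-voom passed none of the 32, so this call depends on the tool and filter.

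In EPSC most matrix genes had less transcript with T09. Only 3 of the 29 well-counted genes had a ratio above 1, against 49.8% of all genes, and the median log2 ratio was -0.32 against -0.00 over all genes. Log2 ratios were -0.74 (-0.78 to -0.70) for Col4a1, -0.70 (-0.78 to -0.61) for Lamb1, -0.67 (-0.71 to -0.63) for Nid1 and -0.43 (-0.46 to -0.41) for perlecan. By the 2-fold rule 0 of 29 were higher (0.895% of all genes) and 1 lower (3.29% of all genes), Col1a1, with 33 counts in T09-treated EPSC and 65 in EPSC. In ESC the ratios lay on both sides, 14 of 30 above 1, with a median of -0.03 against 0.01 over all genes. By the same rule 0 of 30 were higher (1.39% of all genes) and 1 lower (2.53% of all genes), Col5a2, with 19 counts in T09-treated ESC and 53 in ESC. The endoderm markers had median log2 ratios of -0.61 in EPSC and -0.75 in ESC, with 0 of 14 past the threshold in the fit. The fibroblast and smooth muscle markers had a median log2 ratio of -0.97 in EPSC, where 3 of 8 (Acta2, Tagln and Thy1) were lower and 0 higher by the 2-fold rule, and of 0.00 in ESC, and 0 of 8 passed in the fit. Their summed level was 20.6 CPM in T09-treated EPSC and 46.4 in EPSC. The part of either list was not tested.

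The matrix genes of the siNr1h2 library stood close to those of its control. The siNr1h2 library held 0.699% of its counts in the 37 genes and the siNT library 0.702%. By the 2-fold rule 0 of 33 were higher (1.49% of all genes) and 0 lower (2.17% of all genes), and the median log2 ratio was 0.02, against -0.01 over all genes. With intervals for counting error only, it was -0.07 (-0.10 to -0.05) for Col4a1, -0.10 (-0.14 to -0.07) for Col4a2, 0.02 (-0.02 to 0.05) for Lama1, -0.02 (-0.06 to 0.01) for Lamb1 and 0.15 (0.12 to 0.18) for perlecan. The widest ratios were those of Col5a2, 0.80 (0.26 to 1.41), and Lamb3, -0.51 (-1.07 to 0.00), each from under 100 counts. With 1 library each and Nr1h2 still at 37.7 CPM in siNr1h2 against 53.9 CPM in siNT, these ratios describe the 2 libraries.

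Day 2 aggregates had more transcript of some matrix genes and less of others than EPSC. In siNT day 2 blastoids over EPSC 11 of 33 genes were higher, where 14.5% of all genes were, and 7 lower, where 11.3% were. The 4 well-counted type IV chains, Lama1, Lamb1, Lamb3, Col1a2 and all 3 processing genes were on the higher side. The ratios were 6.07-fold for Lamb1, 4.86-fold for P4ha2, 3.21-fold for Col4a2, 2.93-fold for Col4a1, 2.64-fold for Serpinh1, 2.32-fold for Plod2 and 2.23-fold for Lama1. Lamb3, Col4a5, Col4a6 and Col1a2 were higher from under 100 counts. These genes met the minimum count of the rule only through the siNT library, so they could not have been counted as lower. On the lower side the log2 ratios were -2.60 (-2.67 to -2.53) for Nid1, -2.55 (-2.57 to -2.52) for Fn1, -1.82 (-1.89 to -1.76) for Itga5, -1.52 (-2.38 to -0.89) for Col1a1 and -1.23 (-1.28 to -1.18) for Itga6, with Lamc1 and Hspg2 just past 2-fold, and below it when scaled by library totals or by RLE size factors. Fibronectin and its receptor subunit Itga5 were thus both lower.

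Day 2 differed from EPSC in aggregation, medium and transfection, which cannot be told apart here. Both day 2 libraries lay above all 4 stem cell libraries for 14 of 33 genes, against 25.8% of all genes, and below them for 11, against 28.1%. In siNT over EPSC 14.5% of all genes were higher and 11.3% lower. Of 19 endoderm markers 17 were higher and 0 lower, with a median log2 ratio of 3.79. Afp, Amn, Apoa1, Foxa2, Sox17, Thbd and Ttr met the minimum count only through siNT, so they could not have been counted as lower. Of 12 trophectoderm markers 9 were higher and 0 lower, and Cdx2, Hand1 and Krt7 among them likewise met that minimum only through siNT. Of 11 epiblast markers 1 was higher and 7 lower, and of 7 fibroblast and smooth muscle markers 2 were higher and 2 lower. The part of these lists in the matrix changes was not tested.

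By day 5 the type IV pair, Lama1 and Lamb1 were far above their levels in T09-treated EPSC. Of the well-counted type IV chains 4 of 4 were higher in each type, and of the laminin chains 6 of 8 were higher and 1 lower in Type I and 4 of 8 higher and 1 lower in Type III. Among the higher genes, Col4a5, Col4a6, Lamb3 and Col1a2 met the minimum count of the rule only through the day 5 libraries. They could not have been counted as lower, so among the type IV chains only Col4a1 and Col4a2 could have gone either way. In Type I over T09-treated EPSC 18 of 33 were higher, against 22.7% of all genes, and 3 lower, against 18.1%, with a median log2 ratio of 1.23 against -0.03 over all genes. In Type III over T09-treated EPSC 14 of 33 were higher, against 21.7%, and 3 lower, against 16% of all genes, with a median of 0.88 against 0.00. These comparisons share the T09-treated EPSC library. Col4a2 was 87.5-fold higher in Type I and 40.5-fold in Type III, Col4a1 76.8-fold and 38.1-fold, and Lamb1 56.1-fold and 35.5-fold, in the same order.

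The collagen processing genes were also higher. Plod2 was 19.3-fold higher in Type I and 15.6-fold in Type III, Serpinh1 19.3-fold and 13.0-fold, and P4ha2 13.9-fold and 16.6-fold. Lama1 was 17.4-fold higher in Type I and 10.9-fold in Type III, and Sparc 11.7-fold and 7.84-fold. Col4a6 had 0 counts in T09-treated EPSC and was at least 22.2-fold higher in Type I and at least 14.8-fold higher in Type III. Also higher in both were Col4a5, Lamb2, Lamb3, Col1a2 and Itgb4, and higher in Type I by this rule were Lama5, Lamc1, Col5a1 and Itgav.

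Few genes were lower on day 5. Lama3 was 8.29-fold lower in Type I and 6.87-fold lower in Type III than in T09-treated EPSC, and Itga6 2.22-fold and 2.53-fold lower. Col5a2 was counted as lower in Type I and Fn1 in Type III, where it was 2.91-fold lower. In the same comparisons 22.7% of all genes were higher and 18.1% lower in Type I, and 21.7% and 16% in Type III. All 18 of 18 endoderm markers were higher in each type, with median log2 ratios of 7.40 in Type I and 6.90 in Type III. Of these, Afp, Apoa1, Foxa2 and Ttr met the minimum count only through day 5, so they could not have been counted as lower. Of 12 trophectoderm markers 8 were higher and 1 lower in Type I, with a median of 4.10, and 9 higher and 1 lower in Type III, with a median of 5.02. Of 11 epiblast markers 0 were higher and 8 lower in Type I, and 1 higher and 8 lower in Type III. Of 9 fibroblast and smooth muscle markers 3 were higher and 2 lower in Type I, and 4 higher and 2 lower in Type III. The trophectoderm markers Cdx2, Hand1, Krt7 and Tspan8, and Prrx1 of the last list, also met that minimum count only through day 5. The part of these lists was not tested.

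Against the day 2 control, Type I blastoids had 21 of 33 genes higher, where 17.4% of all genes were, and 3 lower, where 16.7% were. Type III had 14 higher, where 14.9% of all genes were, and 2 lower, where 12.5% were. The median log2 ratio was 1.32 in Type I and 0.91 in Type III, against 0.00 and 0.02 over all genes, and both comparisons share the siNT library. The type IV pair led again, with Col4a2 17.4-fold higher in Type I and 8.05-fold in Type III. Sparc was 9.30-fold higher in Type I and 6.22-fold in Type III, Lama1 6.37-fold and 3.98-fold, and Plod2 5.86-fold and 4.74-fold.

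Of the 7 genes counted as lower on day 2 than in EPSC, Lamc1 and Nid1 were higher on day 5 than on day 2 in both types, and Fn1, Hspg2 and Itga5 in Type I. These 7 were picked as low in siNT, which is also the reference here, so that choice favours a rise. Lamc1 was 4.58-fold higher than siNT in Type I and 2.87-fold in Type III, and Nid1 3.69-fold and 2.87-fold. Fn1 (2.61-fold), Hspg2 (2.50-fold) and Itga5 (2.30-fold) passed the rule in Type I, and their log2 ratios in Type III were 0.61, 0.72 and 0.92. Agrn, which had not been counted as lower on day 2, was 2.52-fold higher in Type I and had a log2 ratio of 0.81 in Type III. Lama3 and Col18a1 were lower in both types, Col18a1 by 2.42-fold in Type I and 2.45-fold in Type III, and Col5a2 in Type I. Day 5 and day 2 blastoids also differed in T09 history, transfection and hand picking, which cannot be told apart from the days.

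Type I blastoids had more transcript than Type III for most matrix genes. Of 33 genes 26 had a ratio above 1, against 50.7% of all genes, and the median log2 ratio was 0.48, against 0.01 over all genes. By the 2-fold rule 2 were higher, against 1.93% of all genes, and 1 lower, against 5.75%. The higher ones were Col4a1, 1.01 (1.00 to 1.02), and Col4a2, 1.11 (1.10 to 1.12), with Col4a1 just past 2-fold. The lower one was Col5a2, -1.87 (-2.99 to -1.15), from 14 counts in Type I and 52 in Type III.

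A band of laminin and linker genes lay below 2-fold but beyond counting error. The log2 ratio of Type I over Type III was 0.78 (0.75 to 0.81) for Fn1, 0.70 (0.64 to 0.76) for Lamb2, 0.68 (0.66 to 0.69) for Lama1, 0.67 (0.66 to 0.69) for Lamc1 and 0.66 (0.64 to 0.68) for Lamb1. The 3 chains of the embryonic laminin thus had nearly the same ratio. It was 0.63 for Nid2, 0.60 for perlecan, 0.58 for Sparc, 0.57 for Serpinh1 and 0.52 for Agrn. Receptors had ratios from 0.05 for Itgb1 to 0.53 for Itga3, Itgb4 and Dag1, and P4ha2 was lower in Type I, -0.26 (-0.34 to -0.17). Endoderm markers summed to 7320 CPM in Type I and 5884 CPM in Type III, with a median log2 ratio of 0.46 over 18 genes. Epiblast markers summed to 723 CPM in Type I and 1225 CPM in Type III, and their part and that of the endoderm markers was not tested.

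**Figure D5:**
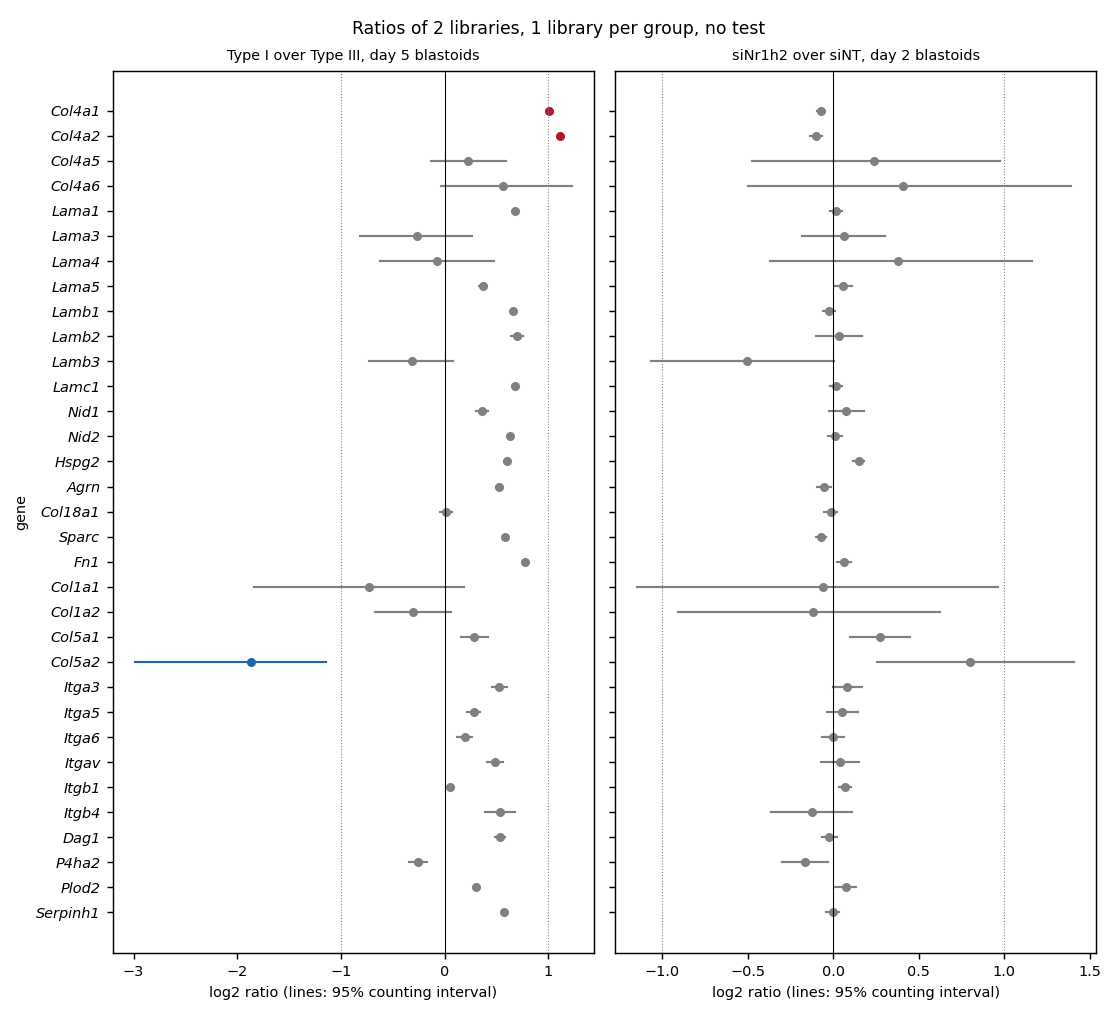
Log2 ratio of 33 matrix genes between 2 libraries, Type I over Type III day 5 blastoids on the left and siNr1h2 over siNT day 2 blastoids on the right, with different axis ranges. Lines are 95% counting intervals and dotted lines mark 2-fold. Col4a1 and Col4a2 (red) were higher and Col5a2 (blue) lower in Type I, and no gene passed the rule for siNr1h2.

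The other genes of the matrix were followed in 3 lists. Of 35 further matrix genes 3 rose and 6 fell among 20 tested in EPSC over ESC, where 14.3% of all genes rose and 14.5% fell, with Col5a3 (a fibrillar chain) at a log2 change of 3.65. In Type I over T09-treated EPSC 13 of 25 were higher, against 22.7% of all genes, and 3 lower, against 18.1%. In Type III 13 of 25 were higher, against 21.7%, and 2 lower, against 16% of all genes. Thbs1, Col6a1, Frem1 and Ntn4 met the minimum count only through the day 5 libraries, so they could not have been counted as lower. The same held for Thbs2 in Type I and Col12a1 in Type III. Thbs1, a thrombospondin, had 11.2 CPM in Type I and 11.9 in Type III. In T09-treated EPSC it had 0.0494 CPM, which rests on 2 counts and lies under the floor of 3 counts. Col6a1, a chain of the microfibrillar type VI collagen, had 1.59 CPM in Type I and 2.13 in Type III, against 0 counts in T09-treated EPSC. In siNr1h2 over siNT 0 of 22 met the rule, where 1.49% of all genes were higher and 2.17% lower. In Type I over Type III 3 of 25 were higher (1.93% of all genes) and 2 lower (5.75% of all genes).

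Of 31 further processing and turnover genes, 10 rose and 5 fell among 30 tested in EPSC over ESC, where 14.3% of all genes rose and 14.5% fell. The larger changes were those of Loxl3, with a log2 change of -2.80, and Adamts14, with 2.75. Enzymes that cross-link matrix differed among themselves on day 5. Loxl2, a lysyl oxidase that acts on type IV collagen, had 581 CPM in Type I and 442 in Type III blastoids, against 9.71 CPM in T09-treated EPSC and 13.5 in siNT. Pxdn, the peroxidase that forms the sulfilimine bonds of type IV collagen, had 363 CPM in Type I and 209 in Type III blastoids, against 8.92 in T09-treated EPSC and 58.2 in siNT. Loxl1, another lysyl oxidase, had 1.09 CPM in Type I and 1.16 in Type III blastoids, against 3.73 in T09-treated EPSC and 1.78 in siNT, and Tgm2, a transglutaminase, had 13.5 CPM in Type I and 22.4 in Type III blastoids, against 26.2 in T09-treated EPSC and 1.78 in siNT. P4ha1, another catalytic subunit of prolyl 4-hydroxylase, had 715 CPM in Type I and 532 in Type III blastoids, against 21.7 and 97.1 in the same order. Pcolce, an enhancer of procollagen cleavage, was lower, with 1.03 CPM in Type I and 2.68 in Type III blastoids, against 171 in T09-treated EPSC and 7.04 in siNT. In Type I over T09-treated EPSC 12 of 29 of this list were higher and 5 lower, against 22.7% and 18.1% of all genes. P4ha3 met the minimum count only through Type I, so it could not have been counted as lower.

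Of 40 further receptors and adhesion adaptors 11 rose and 7 fell among 34 tested in EPSC over ESC, where 14.3% of all genes rose and 14.5% fell. In Type I over T09-treated EPSC 14 of 38 were higher and 9 lower, against 22.7% and 18.1% of all genes, and in Type III 11 of 36 were higher and 10 lower, against 21.7% and 16%. Cd44, Fermt1 and Itgb6 met the minimum count only through the day 5 libraries, so they could not have been counted as lower. The same held for Itga4 and Itgb8 in Type I. A pair of collagen-binding integrin subunits marked day 2: Itga1 had 24.0 CPM in siNr1h2 and 19.7 in siNT day 2 blastoids, against 0.211 to 0.593 CPM in the stem cell libraries and 1.84 CPM in Type I and 3.53 in Type III blastoids, and Itga2 had 1.79 CPM in siNr1h2 and 1.32 in siNT day 2 blastoids, against at most 0.111 CPM elsewhere. Gpc3, a cell surface proteoglycan, had 1212 CPM in Type I and 889.6 in Type III blastoids, against 103 CPM in siNr1h2 and 102 in siNT day 2 blastoids and 7.88 to 26.5 CPM in stem cells. In siNr1h2 over siNT 0 of 36 met the rule, where 1.49% of all genes were higher and 2.17% lower. In Type I over Type III 0 of 36 met it, where 1.93% of all genes were higher and 5.75% lower.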

How the data were processed

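RNA of 8 mouse libraries was sequenced, 1 per group. The deposited table holds raw counts per gene symbol for 24888 genes, as whole numbers, and 5090 genes have no count in any library. STAR, Cuffnorm, HTSeq and mm9 are named in the submitters' processing notes, and versions, roles, annotation and strand setting are not given in the sources used here. Reads of overlapping genes or of near-identical copies may therefore be shared. Per the labels' protocols the libraries were made with a directional kit.

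Counts were scaled by TMM (edgeR 4.0.16, limma 3.58.1, DESeq2 1.42.0, R 4.3.3; Python 3.11.15, scipy 1.17.1, pandas 2.3.3). Totals ran from 24666260 to 40781415. The 4 stem cell libraries entered an edgeR quasi-likelihood fit (filterByExpr, state plus treatment, 1 residual degree of freedom, adjusted p threshold 0.05). The 11 comparisons of 2 libraries used a prior count of 2, a 95% exact conditional (Clopper-Pearson) interval, a 2-fold threshold and a minimum of 20 counts, and give no p-value. A fold against 0 counts was taken against a floor of 3 counts in that library. Reads need not be independent molecules, so intervals and floors reflect counting error alone. Levels of different genes were compared per kb of merged exon (GENCODE release M21, GRCm38), and promoters are RefSeq windows of GRCm38.p6, while the files hold no coordinates. Both procedures were tested on simulated data.

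The members, lists and tests were chosen with earlier results of these data known. Values are given for all 37 genes, in every library for the 12 with the highest mean level and for most of those counted as higher or lower. Of other genes, Nr1h2 and up to 4 members per list and comparison with the largest ratio were named, and further list members (Gata6, Foxa2, P4ha1, Gpc3, Loxl1 and Tgm2 among others) were chosen after their values were seen. Other settings tried were library totals, DESeq2-type size factors, other count minimums and prior counts, no filter, DESeq2 and limma-voom.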

Additional observations from a re-analysis of the deposited data

Results flagged for a closer look

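For 10 of 29 matrix genes the T09 ratio in EPSC and that in ESC pointed in opposite ways beyond counting error, all of them lower with T09 in EPSC and higher with T09 in ESC. Over all 12944 genes counted in both pairs 14.9% were opposite, and 7.69% in that direction. No 2-fold minimum applied, so genes with many counts could qualify on small ratios. The shares over all genes were not matched for counts. The difference was not tested, since each state had 1 library per treatment. The log2 ratio of T09-treated over untreated cells was -0.29 in EPSC and 0.19 in ESC for Lama1, the embryonic laminin alpha chain. It was -0.43 and 0.13 for perlecan (Hspg2), -0.17 and 0.13 for Nid2, -0.08 and 0.10 for Agrn and -0.40 and 0.11 for Fn1, in the same order. Among receptors it was -0.10 in EPSC and 0.22 in ESC for Itga3, -0.30 and 0.21 for Itga6 and -0.23 and 0.33 for Dag1. The widest gap was that of P4ha2, -0.68 in EPSC and 0.84 in ESC, followed by Plod2, -0.51 and 0.22, both of them hydroxylases of collagen.

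Nid2 was the only one of 33 matrix genes whose day 5 ratios over T09-treated EPSC lay on opposite sides, 0.48 in Type I and -0.16 in Type III on the log2 scale, against 3.36% of 14164 genes. This difference was not tested either.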

How the results depend on the processing

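No paired analysis was possible because every group had 1 library and the labels give no replicate numbers, and for the same reason no replicate could be left out. Of the alternative counts of matrix genes higher or lower, 120 stayed within 1.5 times the value reported and 6 did not. T09 gave 0 lower genes in the fit of 4 libraries but 1 (Col4a1) without the filter and 1 (Col4a1) with DESeq2. A count minimum of 100 gave 0 lower genes for T09 in EPSC, 0 for T09 in ESC and 0 in Type I over Type III, and 7 higher in siNT over EPSC in place of 11, because the genes lost had fewer counts. Among values of single genes 786 stayed on their side of the threshold or within their counting interval and none reversed, while 67 ratios of called genes left that interval, all of them under library totals or RLE size factors, and Col4a1 was called for T09 in 2 of the settings given above. Col1a1 in EPSC over ESC lost its call with DESeq2 (adjusted p = 0.154). Scaling by library totals lowered the ratio of every gene by 0.14 (log2) in Type I and in Type III over siNT, and moved it by 0.09 or less elsewhere. All genes called in EPSC over ESC numbered 2069 higher and 2103 lower with edgeR and 1503 and 1648 with DESeq2, and for T09 13 and 2 with edgeR, 23 and 23 without the filter and 20 and 17 with DESeq2. Depth limits Col4a3, Col4a4, Lama2 and Col3a1, and the single library per group limits every ratio of 2 libraries.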

Other observations

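Markers of the trophectoderm, the outer lineage of the blastocyst, had a median ratio below 1 between the 2 day 5 libraries. The 14 markers summed to 1452 CPM in Type I and 1615 CPM in Type III blastoids. Of 12 well-counted members 0 were higher in Type I, against 1.93% of all genes, and 3 lower, against 5.75%. The median log2 ratio was -0.38, with Cdx2 at 0.64 and Tead4 at 0.44 on the other side, while 26 of 33 matrix genes had a ratio above 1. Between day 2 and EPSC 9 of 12 markers were higher in siNT, against 14.5% of all genes, and 0 lower, against 11.3%. Cdx2, Hand1 and Krt7 met the minimum count only through siNT, so they could not have been counted as lower. Cdx2 had 31.5 CPM in siNT, against 0.0524 CPM in EPSC, which rests on 2 counts and lies under the floor of 3 counts.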
